A study of Rattus norvegicus with 24 samples.

Results

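The dual-specificity phosphatases were followed across hormone treatment in rat cumulus-oocyte complexes, each an oocyte with the cumulus granulosa cells around it. Members were the array probes whose platform gene symbol is Dusp followed by a number, which gave 24 probes for 23 of 13161 named genes. Detail is given for the 10 genes whose probe had a detection score over 0.99, meaning signal above the array's negative controls, on at least 6 of 24 arrays. These were Dusp1, Dusp5, Dusp6, Dusp7, Dusp8, Dusp10, Dusp11, Dusp12, Dusp22 and Dusp29. Just inside that limit Dusp10 was detected on 6 arrays, and just outside it Dusp2 and Dusp18 were each detected on 3.

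The complexes came from 24 sexually mature female Sprague Dawley rats, with 1 bead array per rat and 6 rats in each of 4 groups. The groups received GnRH, eCG and hCG (GnRH+eCG+hCG, below the hCG group), GnRH and eCG (GnRH+eCG), GnRH alone, or were labelled control. GnRH is gonadotropin-releasing hormone, equine chorionic gonadotropin (eCG) drives follicle growth, and human chorionic gonadotropin (hCG) stands in for luteinizing hormone and sets off ovulation. RNA was amplified before biotin labelling, and the sources used here give neither the doses nor the timing of hormones, nor what the control rats received.

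Mitogen-activated protein (MAP) kinases are switched on by phosphate on a threonine and a tyrosine of their activation loop, and dual-specificity phosphatases switch them off by removing both. The inducible nuclear enzymes Dusp1, Dusp2, Dusp4 and Dusp5, the cytoplasmic enzymes Dusp6, Dusp7 and Dusp9, which prefer the kinase ERK, and Dusp8, Dusp10 and Dusp16, which prefer the kinases p38 and JNK, carry a domain that docks MAP kinases, whereas the atypical members lack it. In the follicle the ovulatory signal releases EGF-like growth factors from granulosa cells, and these activate ERK in cumulus cells ahead of cumulus expansion and the resumption of meiosis in the oocyte. Several of these phosphatases are themselves transcribed in response to ERK or cAMP signals and so act as negative feedback.

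Sequence upstream of the gene start is shown for the genes that rose after hCG against GnRH+eCG, Dusp5, Dusp6 and Dusp11, and for Dusp1, the other inducible nuclear member described here. The 250 bases before each start were taken from RefSeq, build GRCr8, where all 10 described genes had an entry, and are written 5′ to 3′ on the strand of the gene. Capitals mark a cAMP response element (TGACGTCA) or a CArG box, the element bound by serum response factor.
Dusp5, chr1:262543524-262543773, strand +: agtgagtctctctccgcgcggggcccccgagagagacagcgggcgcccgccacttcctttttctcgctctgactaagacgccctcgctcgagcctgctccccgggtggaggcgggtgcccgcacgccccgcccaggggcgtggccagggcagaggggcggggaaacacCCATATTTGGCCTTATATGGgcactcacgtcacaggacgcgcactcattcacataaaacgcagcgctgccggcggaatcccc
Dusp6, chr7:35979354-35979603, strand +: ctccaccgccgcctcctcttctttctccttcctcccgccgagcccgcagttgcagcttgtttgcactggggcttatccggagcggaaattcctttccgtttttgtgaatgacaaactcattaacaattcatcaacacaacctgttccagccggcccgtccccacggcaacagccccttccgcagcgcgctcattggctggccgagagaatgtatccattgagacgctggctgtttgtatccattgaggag
Dusp11, chr4:119942568-119942817, strand -: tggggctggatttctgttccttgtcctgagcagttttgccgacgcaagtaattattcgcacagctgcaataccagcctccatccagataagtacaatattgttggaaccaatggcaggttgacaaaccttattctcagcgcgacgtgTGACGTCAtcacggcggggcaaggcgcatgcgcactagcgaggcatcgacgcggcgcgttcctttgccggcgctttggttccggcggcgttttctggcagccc
Dusp1, chr10:17184603-17184852, strand +: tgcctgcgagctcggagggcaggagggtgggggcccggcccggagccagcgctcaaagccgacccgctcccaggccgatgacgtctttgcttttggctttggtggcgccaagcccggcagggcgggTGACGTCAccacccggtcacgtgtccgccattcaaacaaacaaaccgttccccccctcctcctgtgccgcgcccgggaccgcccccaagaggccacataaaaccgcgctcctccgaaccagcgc

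The Dusp5 window held 2 adjoining CArG boxes, starting 82 and 72 bases before the gene start, and 1.5% of 33469 promoter windows of this length held a CArG box. A full cAMP response element lay in the Dusp1 window, 124 to 117 bases before the start, and in the Dusp11 window, 103 to 96 bases before it, against 1.59% of all windows. Shorter elements (TGACG, 18.2% of windows), counted on both strands and including those inside a full element, numbered 3 for Dusp1, 2 for Dusp11 and 1 for Dusp5. The AP-1 element (TGANTCA, 6.34% of windows) was in none of the 10 windows, nor were the ETS element (CCGGAAGT, 3.1%) and the TATA box (TATAAA, 12.9%). The GC box (GGGCGG, 30.5%) was in the windows of Dusp1, Dusp5, Dusp7, Dusp10 and Dusp22. None of the 7 motifs was in the Dusp6 window.

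Detection per array covered 25.1% to 37.8% of probes, and 7945 probes, or 36.2%, passed the filter of 6 arrays and entered the limma fit. All 11 cumulus and granulosa markers on the array were tested and 9 to 11 of them were detected per array, and 6 to 10 of the 11 oocyte markers on the array were, so RNA of both cell types of the complex was present. GnRH rats 5 and 16 stood apart from the other rats without hCG, at 22 and 20.4 on the first principal component (50.2% of variance), against 45.7 to 56.1 in the hCG group and -37.9 to 4.8 in the other 16 rats. Values are log2 normalized signal, and since each probe binds with its own strength no gene's level is set against another's.

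Before hCG none of the 10 Dusp genes passed the test between treatments. The count past an adjusted p of 0.05 (limma, Benjamini-Hochberg) was 0 of 10 for GnRH against control, where 0 of 7945 probes (0%) passed, and 0 of 10 for GnRH+eCG against GnRH, where again 0% passed. It was 0 of 10 for GnRH+eCG against control, where 45 probes (0.566%) passed. At an unadjusted p under 0.05 the Dusp counts were 0, 1 and 0, and those of all probes were 915, 423 and 1212. The 1 Dusp gene was Dusp6, whose log2 difference between GnRH+eCG and GnRH was 0.58 ± 0.23 (SE), with an adjusted p of 0.836.

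After hCG, Dusp5, Dusp6 and Dusp11 were higher and Dusp7 was lower than with GnRH+eCG. Those 4 of 10 genes stood against 40.3% of all probes past the threshold, 17.3% higher and 23.1% lower, so the share called was close to the background. Against control, 5 of 10 passed, with Dusp22 added among the higher genes, where 52.1% of all probes passed, 24.3% higher and 27.7% lower. The groups did not overlap for 3 of 10 genes in each comparison, and for 21% and 26.1% of all probes. Dusp5 entered the tested set through the hCG group, which supplied 6 of the 7 arrays that detected it, so its call is not independent of the filter. Some markers of other cell types also differed in the hCG group. Against GnRH+eCG, 2 of 3 tested leukocyte markers were higher, Cd14 (1.39 ± 0.26, SE, adjusted p = 0.000282) and S100a8 (1.61 ± 0.42, adjusted p = 0.00402), both tested through their detection in the hCG group. In that comparison 0 of 6 theca and stroma, 0 of 3 erythrocyte and 0 of 1 endothelium markers were higher. Lower were 1 of the theca and stroma markers and 2 of 3 oviduct epithelium markers. Against control, 4 of 6 theca and stroma, 3 of 3 leukocyte and 3 of 3 erythrocyte markers were higher, and 2 of 3 oviduct epithelium markers were lower. Lum, among the 4, was detected on 4 hCG, 3 GnRH+eCG, 2 GnRH and 0 control arrays. Like Cd14 and S100a8 it passed the filter only with the hCG group, so the counts holding them are not independent of the filter. Median log2 differences were 2.28 for theca and stroma, 1.28 for leukocyte and 1.08 for erythrocyte markers. Without hCG, in GnRH+eCG against control, they were 1.7, 1.25 and 1.15, and only Col1a1 was called (adjusted p = 0.0478). The summed signal of the 10 leukocyte markers on the array was 1973 to 3396 in the hCG group, against 1660 to 3089 with GnRH+eCG and 1418 to 2099 in control, with Ptprc, Cd3e, Cd4, Cd8a and Itgam detected on no array. Their part in the Dusp5, Dusp6, Dusp11 and Dusp22 differences was not tested. In tissue of mixed cells, fewer cells of a type and less RNA per cell cannot be told apart.

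**Figure D1:**
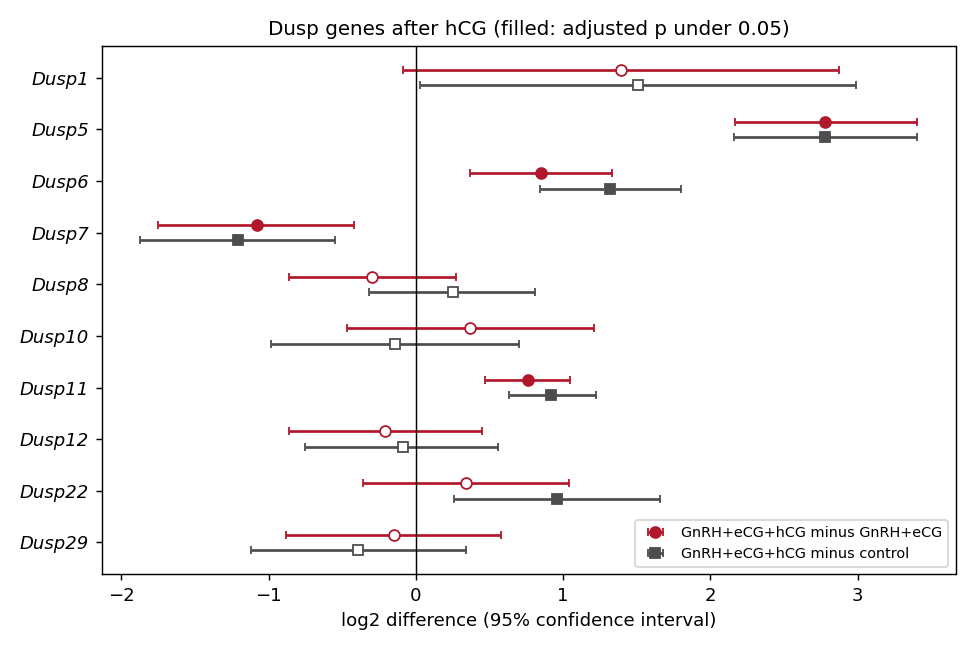
Log2 difference of the 10 described Dusp genes in the hCG group minus GnRH+eCG (circles) and minus control (squares), with 95% confidence intervals from the limma fit and filled symbols for adjusted p under 0.05. Dusp5 lies farthest to the right at 2.78 in both comparisons, Dusp7 alone lies left of 0 with a filled symbol, and Dusp1 has the widest interval.

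Dusp5, probe ILMN_1355177, encodes a nuclear phosphatase that acts on ERK. In the hCG group its lowest, median and highest log2 signals were 7.21, 8.77 and 9.79, against 5.67, 5.91 and 6.12 with GnRH+eCG, 5.53, 5.99 and 7.1 with GnRH, and 5.5, 5.78 and 6.42 in control. It was detected in all 6 rats of the hCG group, in none with GnRH+eCG, in GnRH rat 5 alone of the GnRH group and in no control rat. Every rat given hCG lay above all 18 others.

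Because the probe was not above background with GnRH+eCG or in control, the change of Dusp5 is a bound. By group means under the main normalization, Dusp5 was at least 4.655-fold higher in the hCG group than with GnRH+eCG. Against control it was at least 5.093-fold higher. These bounds carry no sampling error, and the 95% confidence intervals of the fitted log2 differences began at 2.17 and 2.16. The fitted log2 difference was 2.78 ± 0.30 (SE) in both comparisons, with adjusted p of 3.14e-07 against GnRH+eCG and 1.90e-07 against control. The hCG rats also differed most among themselves, with an SD of 0.86, against 0.16 with GnRH+eCG, 0.55 with GnRH and 0.36 in control (n = 6 each). The fit shares 1 spread over the 4 groups, so the SE of 0.30 does not reflect the wider hCG spread alone. Without background correction the difference against GnRH+eCG was 1.65 (adjusted p = 7.18e-07), and with the deposited values it was 1.47 (adjusted p = 3.56e-05). It was 2.33 in rats 1 to 12 (adjusted p = 0.00949) and 3.23 in rats 13 to 24 (adjusted p = 1.84e-05).

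Dusp1, probe ILMN_1367486, encodes the founding nuclear MAP kinase phosphatase, an immediate early gene product. Its lowest, median and highest signals were 10.86, 11.2 and 11.54 in the hCG group, against 8.63, 9.71 and 11.58 with GnRH+eCG, 8.59, 10.78 and 12.87 with GnRH, and 7.71, 9.55 and 12.69 in control. All 4 ranges overlapped, and the highest rats of the other 3 groups exceeded every rat given hCG. Those high values were control rat 2 (12.69), GnRH rats 5 (12.64) and 16 (12.87), and GnRH+eCG rat 21 (11.58).

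The Dusp1 log2 difference between the hCG group and GnRH+eCG was 1.39 ± 0.72 (SE, 95% confidence interval -0.09 to 2.87), with an adjusted p of 0.126. It was 1.51 ± 0.72 against control (0.03 to 2.99), with an adjusted p of 0.0814. With limma's array weights the adjusted p was 0.0112 against GnRH+eCG and 0.021 against control. It was 0.0425 against control without GnRH rats 5 and 16, and 0.00931 (log2 difference 2.11) without control rat 2. Leaving out any 1 array gave no call against GnRH+eCG (adjusted p 0.0609 to 0.241). Within rats 1 to 12 the difference against GnRH+eCG was 1.94 and within rats 13 to 24 it was 0.84, neither called.

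Dusp1 varied less between rats in the hCG group than in the other 3 groups. Its SD was 0.24 in the hCG group, against 0.99 with GnRH+eCG, 1.79 with GnRH and 1.68 in control, a ratio of 0.155 to the pooled SD of the other 3 groups (1.53). Over all tested probes the median SD was 0.24 in the hCG group and 0.3 pooled over the other 3. The Dusp1 spread was thus ordinary in the hCG group and wide in the others. The fit shares 1 spread over the 4 groups. The SE of 0.72 against GnRH+eCG therefore also carries the wide GnRH and control groups. The median ratio was 0.783, and 0.34% of probes had a ratio as low as that of Dusp1. This measure was chosen after the values were seen and carries no test. Dusp6 had a ratio of 0.443, while Dusp5 lay at 2.204, a value that 98.2% of probes did not exceed.

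**Figure D2:**
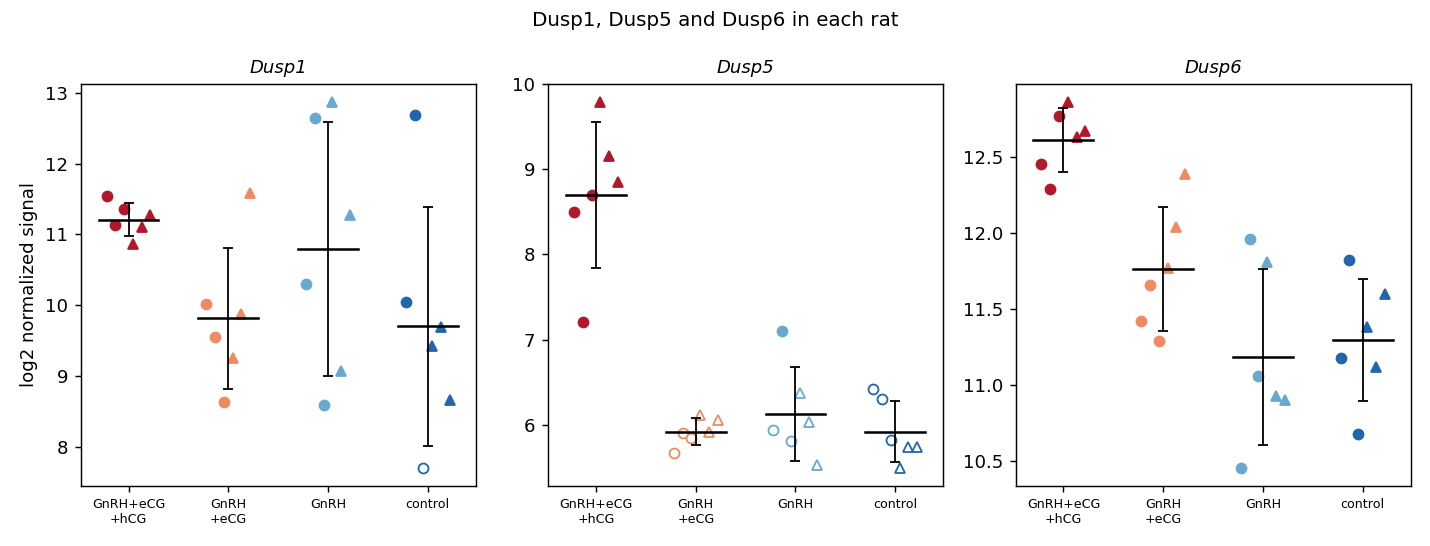
Log2 normalized signal of Dusp1, Dusp5 and Dusp6 in each of 24 rats, by group from the hCG group on the left to control on the right. Circles are rats 1 to 12, triangles rats 13 to 24, open symbols arrays on which the gene was not detected, and bars the mean and SD of 6 rats. The 6 hCG rats lie between 10.86 and 11.54 for Dusp1 while control rats span 7.71 to 12.69, and for Dusp5 they lie above all other rats.

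The summed signal of theca and stroma markers was high in some of the rats in which Dusp1 was high. The summed deposited signal of the 8 theca and stroma markers on the array was 8571 in GnRH rat 5 and 6394 in GnRH rat 16, against 1260 to 3452 in the other 4 GnRH rats. Control rat 2, with a Dusp1 signal as high, had 2654, within the control range of 1240 to 3611. The range was 3297 to 6168 in the hCG group and 3756 to 5008 with GnRH+eCG. Of this list Insl3 and Pdgfra, which mark theca cells and stroma, were detected on no array. Cyp17a1, a theca marker of the list, was detected on no GnRH array, so not in rats 5 and 16. The summed signal of cumulus and granulosa markers was 35660 in GnRH rat 5 and 33250 in GnRH rat 16, against 57810 to 65540 in the other 4 GnRH rats. Control rat 2 had 45560, the lowest of the control range of 45560 to 71110. The part of theca, stroma or granulosa cells in the Dusp1 values was not tested.

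Dusp6, probe ILMN_1362834, encodes the cytoplasmic phosphatase specific to ERK, and was detected on all 24 arrays. Its lowest, median and highest signals were 12.29, 12.65 and 12.86 in the hCG group, against 11.29, 11.72 and 12.39 with GnRH+eCG, 10.46, 11.0 and 11.96 with GnRH, and 10.68, 11.28 and 11.82 in control. The hCG rats lay above every GnRH and control rat, and 5 of the 6 lay above every GnRH+eCG rat, of which rat 21 reached into their range. Within the GnRH group rats 5 and 16 were highest, at 11.96 and 11.81, against 10.46 to 11.06 in the other 4.

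Dusp6 was 1.80-fold higher in the hCG group than with GnRH+eCG, a log2 difference of 0.85 ± 0.23 (SE) with an adjusted p of 0.00557. Against control it was 2.49-fold higher, a log2 difference of 1.32 ± 0.23 with an adjusted p of 7.02e-05. The order of group means was the hCG group (12.61 ± 0.21), GnRH+eCG (11.76 ± 0.41), control (11.3 ± 0.40) and GnRH (11.19 ± 0.58; SD, n = 6 each), and neighbours below the hCG group were not called different. Against GnRH+eCG the call was lost within each set of rats, at 1.05 in rats 1 to 12 (adjusted p = 0.0801) and 0.65 in rats 13 to 24 (adjusted p = 0.0875), with 3 rats a group in each.

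Dusp7, probe ILMN_1370892, encodes a close relative of Dusp6 that also prefers ERK, and it moved the other way. Its lowest, median and highest signals were 6.51, 7.6 and 7.66 in the hCG group, against 7.92, 8.27 and 9.49 with GnRH+eCG, 7.91, 8.24 and 8.93 with GnRH, and 7.43, 8.78 and 9.45 in control. Every hCG rat lay below all GnRH+eCG and GnRH rats, while control rat 14, at 7.43, lay within the hCG range. Hence Dusp7 was 2.12-fold lower in the hCG group than with GnRH+eCG, a log2 difference of -1.08 ± 0.32 (SE) with an adjusted p of 0.00971.

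Against control the Dusp7 difference was -1.21 ± 0.32, with an adjusted p of 0.00318. Within sets of 3 rats a group the calls were lost, at -1.1 in rats 1 to 12 (adjusted p = 0.0671) and -1.07 in rats 13 to 24 (adjusted p = 0.169) against GnRH+eCG, and at -1.03 and -1.39 against control.

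Oocyte markers and some granulosa markers were also lower where Dusp7 was lower. All 9 tested of 11 oocyte markers on the array were lower in the hCG group than with GnRH+eCG, with a median log2 difference of -1.37, and all 9 were lower than in control, with a median of -1.62. Their summed deposited signal was 3089 to 5218 in the hCG group, against 5861 to 20910 with GnRH+eCG, 6173 to 14730 with GnRH and 6986 to 18890 in control, and of the list only Mos was detected on no array. GnRH+eCG rat 8, with the highest sum, had the highest Dusp7 signal (9.49), and hCG rat 23, with the lowest sum, had the lowest (6.51). Of the 11 cumulus and granulosa markers, 5 were lower in the hCG group than with GnRH+eCG and 1, Has2, was higher, with a median of -0.90. Has2 was detected on 5 hCG arrays and 1 GnRH+eCG array alone. It thus entered the test through the hCG group, and its call is not independent of the filter. The summed signal of the 11 markers was 29600 to 48070 in the hCG group, against 48730 to 61750 with GnRH+eCG, 33250 to 65540 with GnRH and 45560 to 71110 in control. The part of either cell type's RNA in the Dusp7 difference was not tested.

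**Figure D3:**
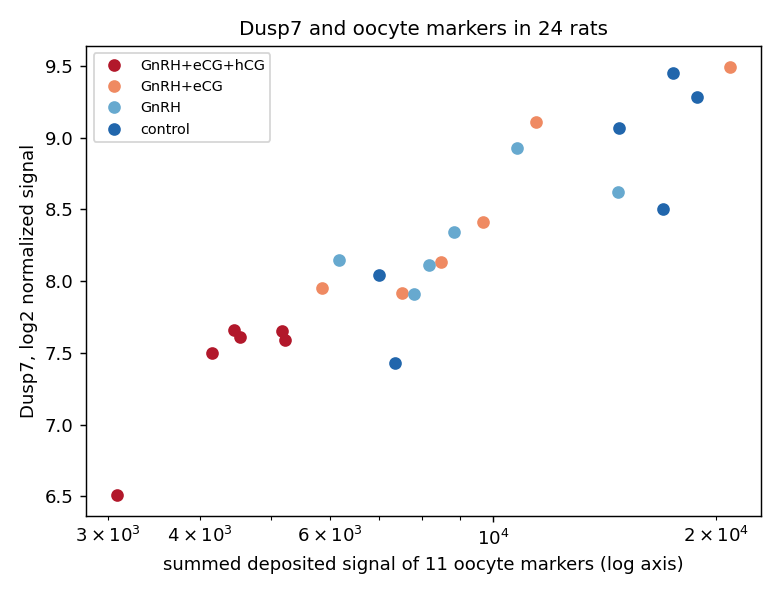
Dusp7 log2 normalized signal against the summed deposited signal of 11 oocyte markers (log axis) in 24 rats, coloured by group. The hCG rats occupy the lower left with sums of 3089 to 5218, and within the other groups rats with a larger sum mostly had a higher Dusp7 signal.

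Dusp11, probe ILMN_1371020, is an atypical member whose enzyme removes phosphate from the 5′ end of RNA rather than from MAP kinases. Its lowest, median and highest signals were 8.82, 9.2 and 9.33 in the hCG group, against 8.1, 8.38 and 8.6 with GnRH+eCG, 8.05, 8.41 and 8.75 with GnRH, and 7.65, 8.33 and 8.45 in control. All 6 hCG rats lay above all 18 others. It was 1.69-fold higher in the hCG group than with GnRH+eCG, a log2 difference of 0.76 ± 0.14 (SE) with an adjusted p of 0.000245, and 1.89-fold higher than in control, with an adjusted p of 1.73e-05. Against GnRH+eCG the difference was 0.72 in rats 1 to 12, where the call was lost (adjusted p = 0.0864), and 0.80 in rats 13 to 24 (adjusted p = 0.00486).

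Dusp22, probe ILMN_1369425, is an atypical member linked to JNK signalling. Its lowest, median and highest signals were 7.5, 7.85 and 9.03 in the hCG group, against 6.35, 7.7 and 8.57 with GnRH+eCG, 6.54, 7.55 and 8.42 with GnRH, and 6.28, 7.06 and 7.66 in control. Only control rat 2, at 7.66, reached into the hCG range from control, whereas GnRH+eCG rats spread across it. The log2 difference was 0.96 ± 0.34 (SE) against control, with an adjusted p of 0.0211, and 0.34 ± 0.34 against GnRH+eCG, with an adjusted p of 0.448. The call against control was lost without hCG rat 11 (0.75, adjusted p = 0.064) or without control rat 13 (0.81, adjusted p = 0.0582), with median scaling (0.82, adjusted p = 0.0662) and with the deposited values (0.30, adjusted p = 0.295). It was lost too in rats 1 to 12 (0.86, adjusted p = 0.238) and in rats 13 to 24 (1.06, adjusted p = 0.0524). Beside the theca, stroma and leukocyte markers given above, the summed signal of the 6 erythrocyte markers on the array was 8270 to 12240 in the hCG group and 3454 to 9643 in control. It was 5357 to 26100 with GnRH+eCG, and Alas2 and Slc4a1 were detected on no array.

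Dusp8, Dusp10, Dusp12 and Dusp29 passed the threshold in none of the 5 comparisons. Dusp8 and Dusp10 encode phosphatases that prefer p38 and JNK and were near the detection limit, seen on 7 and 6 arrays. Against GnRH+eCG the hCG difference was -0.30 for Dusp8 (95% confidence interval -0.86 to 0.27), and it was 0.37 for Dusp10 (-0.47 to 1.21). For the atypical members Dusp12 and Dusp29 it was -0.21 (-0.86 to 0.45) and -0.15 (-0.88 to 0.58). These intervals leave room for changes in either direction. Dusp10 was the most variable of them in the hCG group, between 5.6 and 8.14, with detection in 1 rat.

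**Figure D4:**
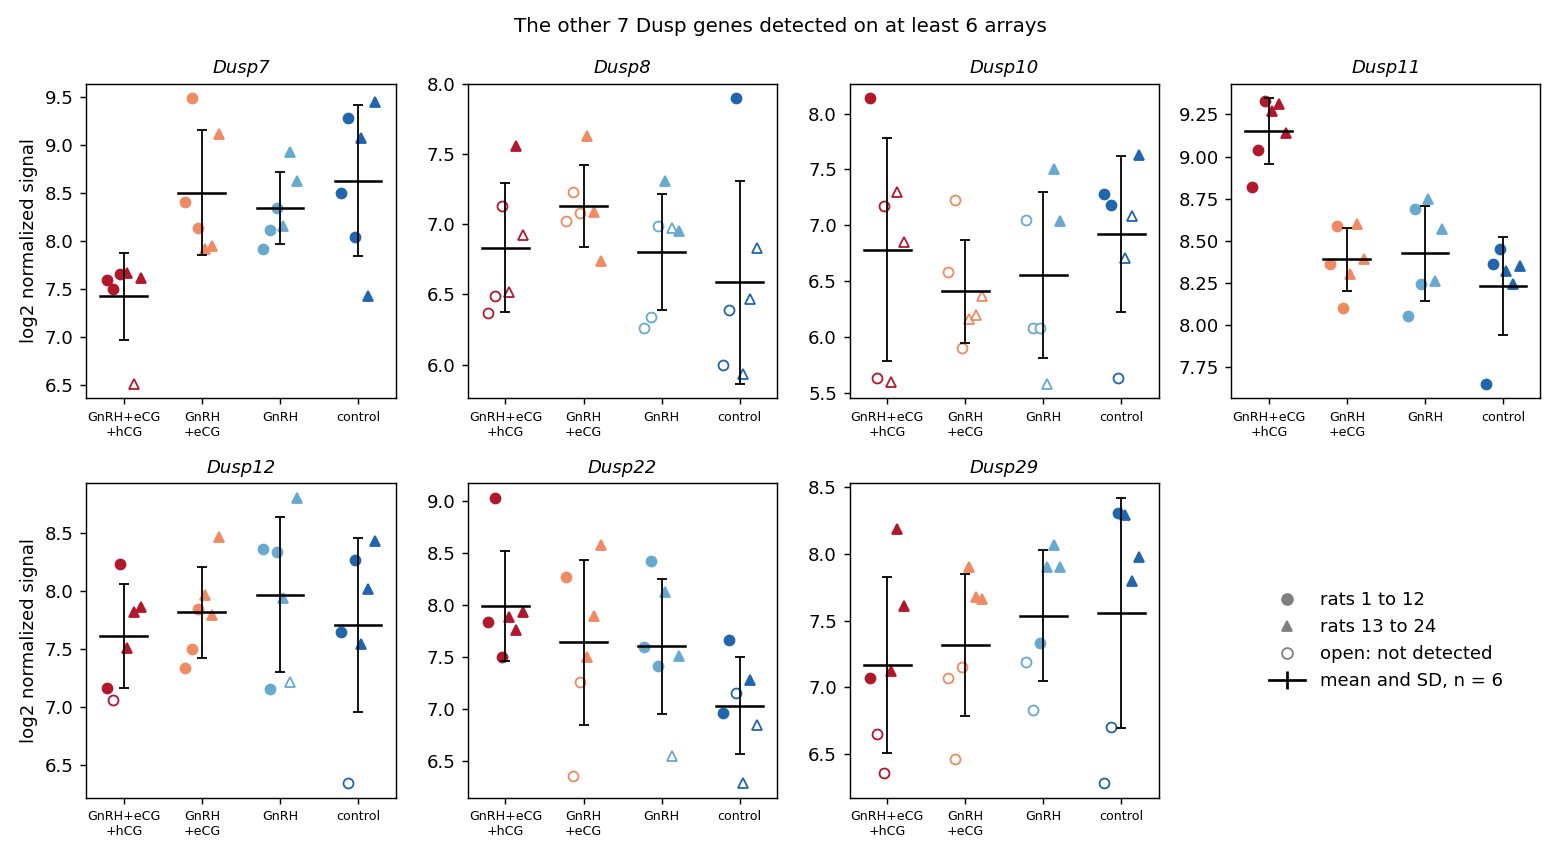
Log2 normalized signal of the other 7 described Dusp genes in each rat, by group from the hCG group on the left to control on the right, with the mean and SD of 6 rats. Circles are rats 1 to 12, triangles rats 13 to 24 and open symbols arrays on which the gene was not detected. Dusp7 is lower and Dusp11 higher in the hCG group than in all GnRH+eCG rats, while the 4 groups overlap for Dusp8, Dusp10, Dusp12 and Dusp29.

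The other 13 Dusp genes were mostly below detection. Of these, 9 were detected on no array, namely Dusp3, Dusp9, Dusp13b, Dusp14, Dusp15, Dusp16, Dusp21, Dusp23 and Dusp26, and 4 were detected on 1 to 3 arrays, namely Dusp2, Dusp4, Dusp18 and Dusp19. A further Dusp8 probe was detected on no array. In the fit without a filter, Dusp4, a nuclear phosphatase, averaged 6.51 ± 0.81 in the hCG group and 5.3 ± 0.15 with GnRH+eCG (SD, n = 6 each), with an adjusted p of 0.000645. Only 1 hCG array detected Dusp4, and its bound was at least 1.021-fold. Dusp19, an atypical member, averaged 5.28 ± 0.16 and 6.29 ± 0.54 in the same groups, with an adjusted p of 0.00115, and 1 GnRH+eCG array detected it, so no fold is given. Dusp14 (log2 difference 0.70) and the further Dusp8 probe (0.50) also passed in that fit without being detected on any array.

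The MAP kinase pathway around these phosphatases was read from lists of known components, and for the hCG group against GnRH+eCG each count stands beside the 17.3% of probes higher and 23.1% lower. In the 3 comparisons before hCG, 0 members of these lists passed. Of 5 tested EGF-family ligands, receptor and sheddase genes, 4 were higher and 1 lower, with a median log2 difference of 1.58 against -0.043 over all probes. Areg (4.79 ± 0.42, SE, adjusted p = 1.44e-08), Ereg (4.12 ± 0.51, adjusted p = 2.51e-06) and Tgfa (1.58 ± 0.22, adjusted p = 9.25e-06) encode EGF receptor ligands, and the lower gene was Adam17 (-0.72 ± 0.11), the sheddase that frees them. Areg was detected on 6 hCG arrays and 1 GnRH+eCG array alone, so like Dusp5 it entered the test through the hCG group, and its call and its place in the count are not independent of the filter. Of 8 tested genes of the Ras-Raf-MEK-ERK cascade, Map2k1, which encodes the ERK kinase MEK1, was higher (0.87 ± 0.23, adjusted p = 0.00515) and none was lower. Braf (0.43, adjusted p = 0.133) and Rap1a (-0.26, adjusted p = 0.198) were not called, and the median was 0.03.

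In the p38 and JNK cascades, 0 of 8 tested genes were higher and 3 were lower. Map2k6, the kinase upstream of p38, differed by -1.43 ± 0.24 (adjusted p = 8.9e-05) and Mapk14, which encodes p38 alpha, by -0.83 ± 0.19 (adjusted p = 0.00122). Mapk9, which encodes JNK2, was detected on no hCG array and was at least 1.227-fold lower there than with GnRH+eCG (adjusted p = 7.6e-05). Of 11 tested inhibitors of Ras and ERK signals other than the Dusp genes, 6 were higher and 1 lower, with a median of 0.46. Errfi1, an inhibitor of the EGF receptor, differed by 3.09 ± 0.52 (adjusted p = 7.6e-05), Spry2 by 1.71 ± 0.24 (adjusted p = 9.66e-06) and Spred1 by 0.70 ± 0.18 (adjusted p = 0.00296).

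Of 6 other tested enzymes that dephosphorylate MAP kinases, 1 was higher, Ppp2ca, a catalytic subunit of protein phosphatase 2A (0.23 ± 0.07, adjusted p = 0.016), with a median of 0.15. Ppm1a (0.26, adjusted p = 0.127) and Ppp2cb (0.17, adjusted p = 0.353) were not called. Of 4 tested kinases downstream of MAP kinases, Rps6ka5 (0.90 ± 0.26, adjusted p = 0.00764) was among the 2 that were higher, and Mknk2 (-0.92 ± 0.13, adjusted p = 8.67e-06) and Mapkapk5 (-0.53 ± 0.16, adjusted p = 0.00906) were the 2 that were lower. Of 17 tested immediate early and ERK target genes, 9 were higher and 1 lower, with a median of 0.90. The 3 with the smallest adjusted p were Ier5 (2.59 ± 0.45, adjusted p = 0.000113), Phlda1 (2.19 ± 0.48, adjusted p = 0.000997) and the transcription factor Klf6 (1.41 ± 0.31, adjusted p = 0.00109). Phlda1 was detected on 5 of 6 hCG arrays and 1 of 6 GnRH+eCG arrays and Klf6 on 6 and 1, and both also entered the test through the hCG group, with detection on 8 and 11 of 24 arrays. The lower gene was Etv1 (-0.94 ± 0.26, adjusted p = 0.0054). Etv1 was detected on 4 of 6 GnRH+eCG arrays and on no hCG array. Its fitted difference thus rests on background signal in the hCG group, and no fold is given. Among those not called were Fos (0.81, adjusted p = 0.244), Jun (0.41, adjusted p = 0.173) and Ier3 (0.13, adjusted p = 0.438).

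**Figure D5:**
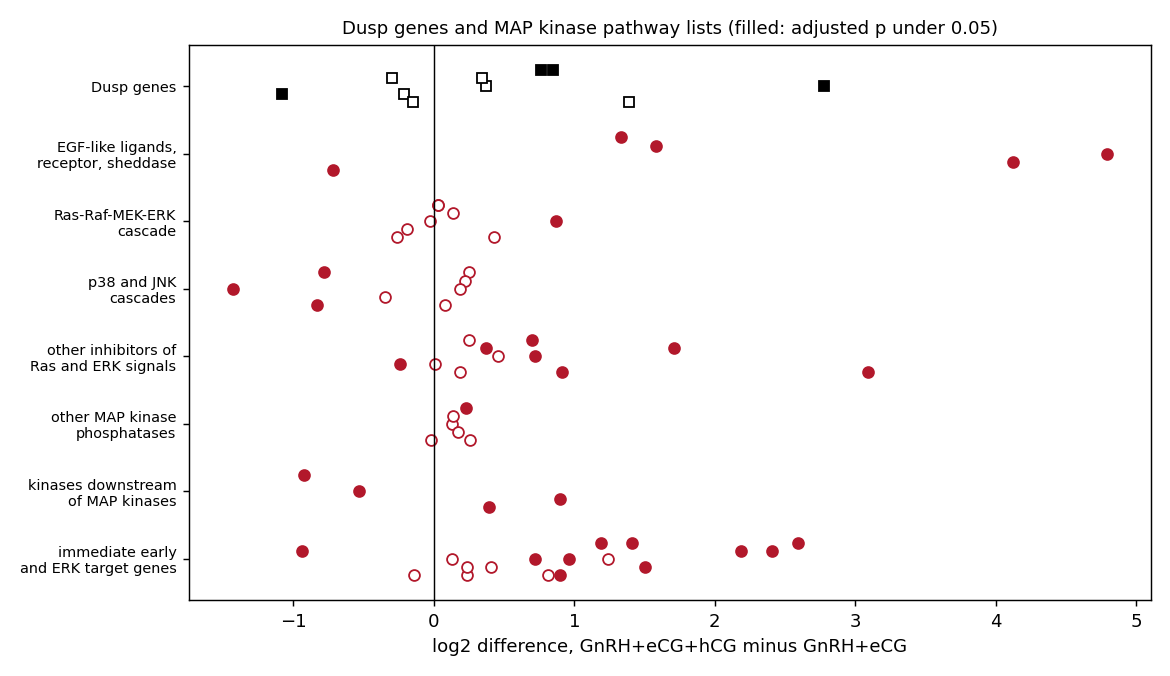
Log2 difference, hCG group minus GnRH+eCG, of the 10 described Dusp genes (squares) and of the tested members of 7 MAP kinase pathway lists (circles), filled where adjusted p was under 0.05. The EGF-like ligands Areg and Ereg lie farthest to the right, then the inhibitor Errfi1 at 3.09 and Dusp5 at 2.78, and the p38 and JNK cascade has filled symbols left of 0 alone.

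The genes whose pattern was most like each Dusp gene were ranked by Pearson correlation over 24 arrays, which share their groups and normalization, and again over deviations from the 4 group means. For Dusp5 they were Adamts12 (0.961), Cxcl10 (0.96), Pcdh17 (0.956), Hs3st1 (0.953) and Odc1 (0.948), and within groups Adamts12 (0.721), Cxcl10 (0.704), Or52p1 (0.702), Ereg (0.692) and Areg (0.69). For Dusp6 they were Nsdhl (0.918), Stard4 (0.914), Mospd2 (0.909), Il4r (0.909) and Rgs2 (0.907), and within groups Arpc3 (0.878), Nsdhl (0.871), Cthrc1 (0.847), Itga1 (0.843) and Ppp1r15a (0.841). Dusp1 was most like Gadd45a (0.951), S100a6 (0.927), Anxa1 (0.894), Sat1 (0.884) and Mxra8 (0.874), and within groups Gadd45a (0.943), S100a6 (0.92), A2m (0.912), Sat1 (0.91) and Rab33a (0.905). The Dusp1 values thus held nearly the same likeness within groups as across them, whereas those of Dusp5 dropped once group means were removed. Outside the hCG group Dusp5 was detected in GnRH rat 5 alone, so its deviations within those groups mostly lie at background.

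Dusp7 was most like Rragc (0.941), Tsx (0.937), Mael (0.934), Ybx2 (0.934) and Glrx (0.93), and within groups Rragc (0.926), Bub1b (0.914), Naa50 (0.911), Hspbap1 (0.91) and Ybx2 (0.898). Dusp11 was most like Zfp189 (0.91), Wdr75 (0.906), Pitrm1 (0.902), Hacd3 (0.899) and Nifk (0.896), and within groups Wdr75 (0.793), Dnm1l (0.779), Zfp189 (0.772), Nup205 (0.749) and Acsl1 (0.741). Dusp22 was most like Tbrg1 (0.864), Prdx3 (0.856), Slc25a39 (0.846), Hsd3b1 (0.842) and Srp14 (0.839), and within groups Hsd3b1 (0.863), Slc37a4 (0.859), Zer1 (0.859), Dlat (0.845) and Tbrg1 (0.84). Among the Dusp genes themselves, Dusp6 correlated with Dusp5 at 0.80 and with Dusp1 at 0.55 over 24 arrays, and at 0.53 and 0.68 within groups. Dusp5 and Dusp7 correlated at -0.63 over 24 arrays and at -0.09 within groups.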

How the data were processed

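RNA of 24 rats was measured on 1-colour bead arrays, 1 per rat. The deposited signal is an intensity, not yet on a log scale, made with BeadStudio per the submitters' processing notes, version not given. The deposited detection values are a fraction that increased with the signal on every array, and were read as 1 minus the detection p. The tables hold 22226 probes, of which 21946 had matching identifiers and were kept, and 24 repeated signal columns were not used. Symbols came from the platform annotation, which named 13518 probes and no gene for 8428.

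Signals were background corrected and quantile normalized (neqc, offset 16, limma 3.58.1, R 4.3.3). A model with 4 group means was fitted with lmFit and eBayes to 7945 probes, with Benjamini-Hochberg adjustment in each of 5 comparisons and a threshold of 0.05. The fit was also run on simulated data with independent probes and the same spread in all groups. These data are less simple, so that run is no check of the calls given here. A gene with several probes was represented by the brightest. Where no array of a group detected a probe, its fold is a bound against the lowest detected signal of each array, or the probe's own if higher. Such a bound compares group means under the main normalization and carries no sampling error. Named genes were all Dusp genes and the 5 most like each described gene. From each pathway list the 3 with the smallest adjusted p after hCG were named. Adam17, Etv1, Fos, Jun, Ier3, Junb, Klf10, Zfp36, Egr1, Egr2 and Myc were named after their values were seen. The members and lists were chosen with earlier results of these data known. Rats 1 to 12 and 13 to 24, with 3 rats of each group in each, differed in median signal (176.4 to 234.65, against 140.15 to 179.1), and the labels name no batch. The p-values measure the spread between rats, and the number of arrays limits precision. Alternatives covered background correction, normalization, offset, filter, variance model, array weights, rat sets, single arrays and the deposited values.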

Additional observations from a re-analysis of the deposited data

Results flagged for a closer look

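Of 40 sets of 6 rats (10 Dusp genes in 4 groups), 3 held a rat whose distance from the nearest of the others exceeded Dixon's critical value as a share of the range, and chance gives about 1 in 20. Dusp7 in hCG rat 23 was 6.51, below the other 5 rats of the hCG group at 7.5 to 7.66, and was not detected there. The summed oocyte marker signal of that rat, 3089, was also the lowest of its group. Dusp22 in hCG rat 11 was 9.03, above the other 5 at 7.5 to 7.93. Dusp11 in control rat 1 was 7.65, below the other 5 control rats at 8.24 to 8.45.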

How the results depend on the processing

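Results were recomputed under 12 other settings and with each of 24 arrays left out. The Dusp1 difference between the hCG group and GnRH+eCG passed the threshold only with array weights (1.5), and lay at 1.16 to 1.74 with 1 array left out. The Dusp6 difference was 0.76 to 0.98 with 1 array left out and lost its call in rats 1 to 12 (1.05) and in rats 13 to 24 (0.65), where fewer rats were fitted. Dusp5 kept its call in all 36, at 1.47 (deposited values) to 3.23 (rats 13 to 24) under the other settings. The number of Dusp genes called against GnRH+eCG was 4, but 1 in rats 1 to 12, 2 in rats 13 to 24 and 5 with array weights. Against control it was 5, but 3 in each set, 4 with median scaling, and 6 with array weights or without GnRH rats 5 and 16. With 1 array left out it was 4 against GnRH+eCG and 4 to 6 against control. Of the differences that were not called, 70 changed sign under some setting, in 21 of 50 results, and no called one did. Dusp29 against control was called with the deposited values alone, where the median of all probes shifted to -0.261 (-0.159 against GnRH+eCG), and the cause was not tested. Over all probes, GnRH+eCG against control gave 45 calls, but 14 with median scaling, 433 with array weights, 0 and 22 in the rat sets, 213 without GnRH rats 5 and 16, 4 with the deposited values and 13 to 111 with 1 array left out. GnRH+eCG against GnRH gave 0, but 32 with array weights, 5 in rats 13 to 24, 11 without GnRH rats 5 and 16 and 0 to 3 with 1 array left out. The hCG group gave 979 and 1611 calls in the rat sets against GnRH+eCG (3205 in all rats), and 1594 in rats 1 to 12 against control (4136 in all rats). The further Dusp8 probe was not used in place of the brighter one, since no array detected it and the filter removed it. No paired analysis was possible because no rat number occurs in more than 1 group. Genes near background, such as Dusp8 and Dusp10, were measured least firmly.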

Other observations

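The Dusp genes that passed no threshold also had genes of like pattern, by Pearson correlation over 24 arrays. For Dusp29 these were Aasdhppt (0.905), Ntf4 (0.899), Or4x6 (0.885), Eml4 (0.848) and Eif1ax (0.826), and within groups Ntf4 (0.915), Aasdhppt (0.904), Or4x6 (0.889), Lime1 (0.886) and Mpp2 (0.87). For Dusp8 they were Rbm6 (0.736), Kifc2 (0.691), Lipi (0.69), Ppp1r1b (0.688) and Pde1c (0.675), and within groups Kifc2 (0.813), Rbm6 (0.731), Nod2 (0.729), Ppp1r1b (0.721) and Fdft1 (0.717). For Dusp10 they were Btnl7 (0.684), Tubb2b (0.672), Tapbp (0.672), Prss23 (0.671) and Fam107b (0.664), and within groups Sema5a (0.831), Itgb5 (0.78), Ptgis (0.777), Tent5a (0.759) and Tent5c (0.757). For Dusp12 they were Ipo9 (0.705), B4galt3 (0.675), Atp2a2 (0.62), Atp1b1 (0.586) and Tmem128 (0.569), and within groups Ipo9 (0.716), B4galt3 (0.706), Elp5 (0.691), Nap1l4 (0.679) and Fam3a (0.657). Dusp29 also split by rat number. It averaged 6.69 ± 0.36 in rats 1 to 12 and 7.64 ± 0.54 in rats 13 to 24 of the hCG group (SD, n = 3 each), 6.89 ± 0.38 and 7.75 ± 0.13 with GnRH+eCG, 7.12 ± 0.26 and 7.96 ± 0.10 with GnRH, and 7.1 ± 1.07 and 8.02 ± 0.25 in control. This split was noticed in the values and was not tested.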
